A study of Homo sapiens with 6 samples.

Results

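Integrins and the proteins of focal adhesions were examined as a group of 37 genes, chosen by name from the 27605 genes of the deposited table. The group holds 6 integrin alpha subunits, 6 beta subunits, 6 proteins that activate integrins or form the ILK complex, 6 kinases and adaptors, and 13 proteins that link the adhesion to actin. RNA was sequenced from cells labelled as the human liver cancer cell line HepG2, in 2 groups of 3 libraries. These were the control shNC, labelled as wild type, and shARHGEF2, in which a lentivirus carrying a hairpin knocked down ARHGEF2. Cells of both groups were kept in DMEM with serum and antibiotics. It is not stated if the 3 knockdown libraries carry the same hairpin, nor if the libraries of a group came from separate cultures, so the p-values measure the spread between these libraries, which may be technical.

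Integrins are paired alpha and beta subunits that span the cell membrane and bind matrix proteins such as fibronectin, collagen and laminin. Talin and the kindlins bind the short tail of the beta subunit inside the cell and switch the receptor on, and ILK, PINCH and parvin assemble beside them. FAK and SRC then phosphorylate paxillin and BCAR1, which recruit the CRK adaptors, while vinculin, zyxin, filamin, alpha-actinin, the tensins and the Ena/VASP proteins tie the site to actin fibres. ARHGEF2 activates RHOA, and the contraction that RHOA drives through myosin is known to enlarge these adhesions, so their genes were compared between shNC and shARHGEF2 cells.

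The ends of the coding sequences of 3 beta subunits are shown, since 2 of them, ITGB1 and ITGB5, carry the widest interval and the lowest p-value of the group. Each is the last 90 bases before the stop codon, 5′ to 3′, in the transcripts of GENCODE 29 on GRCh38. Capitals mark the 12 bases of each NPxY motif, a site in the tail that talin or kindlin binds. Only this exact motif was searched for, so binding sites of another sequence stay in lower case. The stretch of ITGB1-201 lies in exons 15 and 16 of 16 (chr10:32901573-32908394, minus strand, with an intron inside), that of ITGB3-201 in exons 14 and 15 of 15 (chr17:47307611-47310201, plus strand, with an intron inside) and that of ITGB5-201 in exon 15 of 15 (chr3:124763626-124763715, minus strand).
ITGB1: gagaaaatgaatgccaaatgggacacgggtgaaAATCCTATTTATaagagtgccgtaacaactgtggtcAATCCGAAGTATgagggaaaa
ITGB3: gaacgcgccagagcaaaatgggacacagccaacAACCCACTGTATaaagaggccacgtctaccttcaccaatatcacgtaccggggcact
ITGB5: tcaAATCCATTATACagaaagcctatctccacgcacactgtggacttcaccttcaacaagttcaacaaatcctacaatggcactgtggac
The exact motif occurs 2 times in the stretch of ITGB1 and 1 time in those of ITGB3 and ITGB5, which is not a count of all talin or kindlin sites. The genes also differ in base composition, with 41.4% G and C over the coding sequence of ITGB1, 54.8% in ITGB3 and 55.8% in ITGB5.

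The values are FPKM, fragments per kilobase of transcript, scaled to the mapped fragments of each library. Levels of different genes can be set side by side only roughly, since the libraries also differed by base composition, as described below. How far base composition set the order of the genes was not tested. The spacing of low values put each library at an estimated 20.19 to 23.35 M read pairs, but only 34.7% to 35.9% of those values lay within 0.1 of a whole number of pairs, against 20% by chance, so read counts could not be recovered and no counting interval is given. Of 13 hepatocyte markers, 7 were measured and none reached a mean of 1 FPKM, with AFP at most at 0.0703 FPKM and HNF4A at most at 0.0956 FPKM; their summed level ran from 0.414 to 0.726 FPKM in shNC and from 0.431 to 1.02 FPKM in shARHGEF2 cells. The other listed hepatocyte markers, ALB, APOB and TTR among them, gave no values under these names in the data used here, so their levels are not known. The measured ones were thus at or near 0 in cells labelled as a liver line, and the groups are called by their hairpin below. The identity of the line was not tested. Of 8 epithelial markers, 4 keratins (KRT7, KRT8, KRT18 and KRT19) were the only ones to average 1 FPKM or more across all 6 libraries (KRT14 ran from 0.641 to 1.32 FPKM), while EPCAM and CDH1 stayed under 0.06 FPKM in every library. Of 7 fibroblast markers 5 had a mean of at least 1 FPKM (VIM, LUM, COL1A1, COL3A1 and DCN). The summed level of that list was 167 to 235 FPKM in shNC and 143 to 224 FPKM in shARHGEF2 cells. VIM alone gave 115 to 188 FPKM in shNC and 104 to 179 FPKM in shARHGEF2 cells. COL1A2 was at or near 0, and PDGFRB ran from 0.42 to 0.673 FPKM. In 4 measured endothelial markers the mean never reached 1 FPKM. Of 4 measured leukocyte markers only CD68, a gene of lysosomes, did, and PTPRC, the general leukocyte marker, was at or near 0. In such bulk samples fewer cells of a type and less RNA per cell cannot be told apart.

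ARHGEF2, the target of the hairpin, had 13.0, 14.4 and 13.9 FPKM in the shNC libraries and 4.25, 4.0 and 4.82 FPKM in the shARHGEF2 libraries. The groups did not overlap, and limma put the log2 fold change at -1.47 with a standard error of 0.11 and an adjusted p of 0.00244. With no filter on low values, where 27605 genes were tested, the adjusted p in limma was 0.0701. The unadjusted p in limma was then 5.08e-06, against 3.97e-07 with the filter. RHOA, whose protein ARHGEF2 activates, averaged 215 ± 6.15 FPKM in the shNC libraries and 209 ± 3.68 FPKM in the knockdown libraries (SD, n = 3 each).

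Among the alpha subunits, ITGA5 and ITGA3 made up nearly all of the message. ITGA5, the alpha chain of the main fibronectin receptor, had 182, 179 and 214 FPKM in shNC and 222, 205 and 206 FPKM in shARHGEF2 cells. ITGA3, the alpha chain of a laminin receptor, had 84.7, 84.5 and 104 FPKM in shNC and 101, 90.7 and 91.3 FPKM in shARHGEF2 cells. Both genes overlapped between the groups, and together they gave 93.7% ± 1.71 of the FPKM of the 6 alpha subunits in shNC and 94.1% ± 1.4 in shARHGEF2 cells (SD, n = 3 each). The other 4 were far lower. ITGA6, another laminin receptor chain, ran from 5.77 to 9.31 FPKM over the 6 libraries, and ITGA2, a collagen receptor chain, from 3.71 to 6.81 FPKM. ITGAV, which pairs with several beta subunits to bind vitronectin and fibronectin, lay between 2.85 and 6.11 FPKM, and ITGA1, the other collagen receptor chain, between 1.5 and 2.83 FPKM. The groups overlapped in each of these 4 genes.

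Of the beta subunits, ITGB5, ITGB1 and ITGB4 were above 30 FPKM in every library and the other 3 at a few FPKM or less. ITGB1, the partner of most alpha chains listed here, had 36.2, 54.0 and 61.2 FPKM in shNC and 31.5, 55.8 and 58.4 FPKM in shARHGEF2 cells. In each group replicate 1 was the lowest by a wide margin and the groups overlapped. ITGB3, the vitronectin receptor chain of platelets and endothelium, ran from 2.37 to 3.13 FPKM. ITGB8 (0.196 to 0.408 FPKM) and ITGB6 (0.0257 to 0.110 FPKM), both partners of ITGAV that can release active TGF-beta, did not reach the mean of 0.5 FPKM needed for a test, like LPP, a relative of zyxin at 0.284 to 0.471 FPKM. The message of ITGA5 exceeded that of ITGB1 in every library, by 3.31 to 5.02 times in shNC and 3.52 to 7.03 times in shARHGEF2 cells. The highest ratio of each group belonged to replicate 1, where ITGB1 was low.

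**Figure D1:**
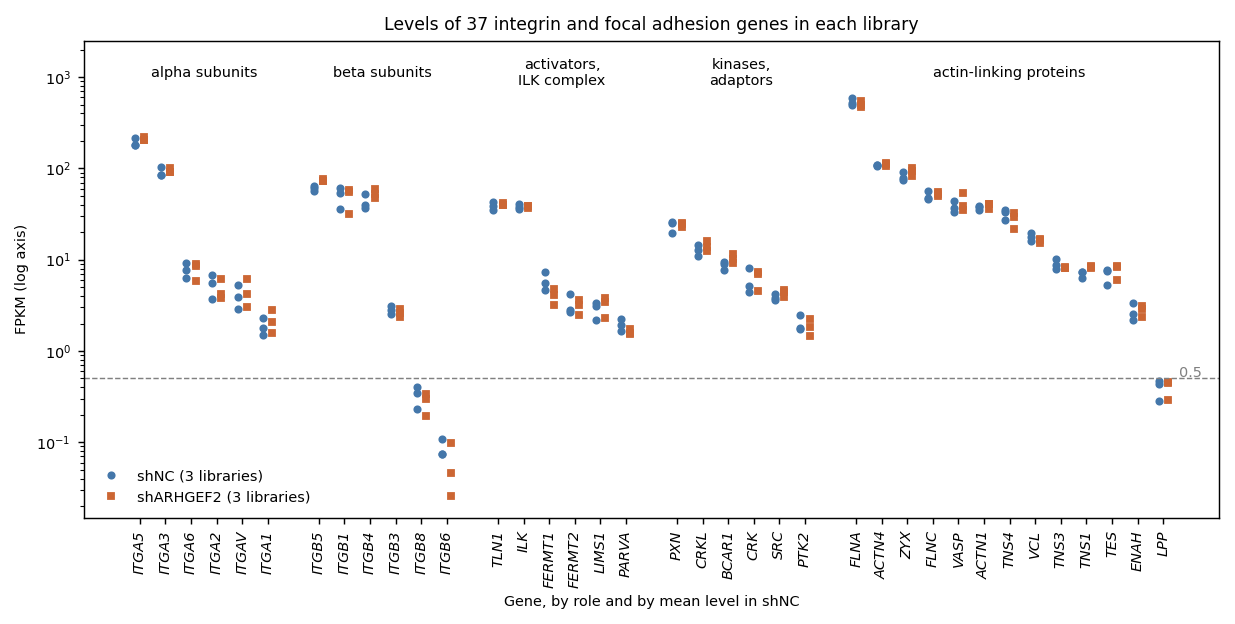
FPKM of the 37 genes in each of 6 libraries on a log axis (circles, shNC; squares, shARHGEF2), ordered by role and by mean level in shNC, with the limit of 0.5 FPKM for a test as a dashed line. FLNA, ITGA5 and ACTN4 stand highest, ITGB8, ITGB6 and LPP fall below the limit, and the libraries of the groups lie side by side in nearly all genes.

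Messages of the actin-linking proteins ranged widely, from FLNA, the highest of the 37 genes, to LPP at under 0.5 FPKM. FLNA, the actin crosslinker filamin A, had 489, 514 and 586 FPKM in shNC and 543, 475 and 490 FPKM in shARHGEF2 cells, and supplied 34.7% ± 0.596 of the summed FPKM of the 37 genes in the control and 32.1% ± 0.951 in the knockdown (SD, n = 3 each). ACTN4, an alpha-actinin that bundles actin, had 105, 109 and 108 FPKM in shNC and 114, 106 and 113 FPKM in shARHGEF2 cells. ZYX, which gathers at stressed actin fibres, had 78.1, 75.2 and 92.1 FPKM in shNC and 102, 93.6 and 81.7 FPKM in shARHGEF2 cells. The groups overlapped in all 3 genes. FLNC, the filamin best known from muscle, had 45.8, 47.6 and 56.9 FPKM in shNC and 55.8, 52.2 and 50.1 FPKM in shARHGEF2 cells, again overlapping. VASP ran from 33.5 to 54.0 FPKM and ACTN1 from 35.0 to 40.8 FPKM. VCL, the gene of vinculin, which joins talin to actin, ran from 15.4 to 19.5 FPKM, and TNS4, a short tensin without the actin-binding end, from 21.9 to 35.1 FPKM. TNS3 (7.92 to 10.2 FPKM), TES (5.33 to 8.57 FPKM) and ENAH (2.16 to 3.38 FPKM) were lower.

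Integrin activators came at different levels. TLN1, the only talin on the list, ran from 35.3 to 42.4 FPKM and ILK from 36.1 to 40.7 FPKM, while the partners of ILK were far lower, LIMS1 (PINCH) at 2.16 to 3.82 FPKM and PARVA (parvin) at 1.53 to 2.26 FPKM. In the annotation 68.1% of the exon bases of ILK overlap TAF10 on the opposite strand. The libraries kept the strand, but whether the counting used it is not given in the sources used here, so the value of ILK is uncertain to that extent. Likewise LIMS1 has near-identical relatives, LIMS3 and LIMS4, with which reads may be shared. FERMT2, the widespread kindlin, had 2.46 to 4.23 FPKM. Among the kinases and adaptors, PXN (paxillin) was highest at 19.6 to 25.8 FPKM, with 12.3% of its exon bases opposite PXN-AS1. CRKL followed at 10.9 to 16.0 FPKM, BCAR1 at 7.63 to 11.5 FPKM and CRK at 4.41 to 8.03 FPKM. The tyrosine kinases were low, SRC at 3.64 to 4.68 FPKM and PTK2, the gene of FAK, at 1.47 to 2.48 FPKM.

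The comparison of shARHGEF2 with shNC cells asked whether loss of this RHOA activator moved the messages of the adhesion machinery. Of the 37 genes, 34 had a mean of at least 0.5 FPKM and were tested, and 0 passed an adjusted p of 0.05 in limma, where 0.277% of the 12291 genes tested passed (34 genes, of which 24 or 0.195% were higher and 10 or 0.0814% lower). That number over all genes was itself unsteady, at 1 with no filter on low values, 6 without shARHGEF2 replicate 3 and 102 without shNC replicate 3, while the members called stayed at 0 in these fits. At an unadjusted p under 0.05 in limma there were 2 of the 34, ITGB5 higher and FERMT1 lower, which is 5.88% against 13.7% of all genes tested (8.1% higher and 5.55% lower). The groups did not overlap in 2 of the 34, ITGB5 and TNS1, both higher in shARHGEF2 cells, or 5.88% against 20.5% of all genes tested (11.3% higher and 9.17% lower). The members' share lay below that of all genes by either count, but without shNC replicate 3 the groups did not overlap in 12 of the 34, beside 33.9% of all genes, which is no longer below. The fitted value was higher in the knockdown for 22 members and lower for 12, and their median, 0.06 on the log2 scale, stood beside 0.00 for all genes tested. This split moved with the library left out, from 15 higher of 34 without shNC replicate 1 to 25 without shNC replicate 2.

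ITGB5, the beta chain that joins ITGAV in a vitronectin receptor and whose tail is shown above, had 56.9, 60.2 and 64.7 FPKM in shNC and 72.9, 76.0 and 72.8 FPKM in shARHGEF2 cells. The groups were apart (p = 0.1 in an exact permutation test, two-sided, the smallest value that 3 libraries against 3 allow). The ratio of the means was 1.22 and the log2 fold change 0.28 (standard error 0.08, 95% interval 0.09 to 0.48, unadjusted p = 0.00902 and adjusted p = 0.204 in limma). Its log2 fold change stayed between 0.24 and 0.33 over the 13 alternatives, with an unadjusted p under 0.05 in 13 and an adjusted p under 0.05 in 0 of them. The adjusted p lay between 0.133 and 0.491 in limma.

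ITGB4, the long-tailed beta chain of hemidesmosomes, which pairs with ITGA6, had 36.6, 39.3 and 51.8 FPKM in shNC and 59.8, 47.0 and 52.7 FPKM in shARHGEF2 cells. The highest shNC library reached past the lowest shARHGEF2 library. Its log2 fold change of 0.32 was the largest upward value in the group (standard error 0.14, 95% interval -0.01 to 0.65, adjusted p = 0.375 in limma). With 1 library left out it ran from 0.23 (without shNC replicate 1, unadjusted p = 0.178 in limma) to 0.47 (without shNC replicate 3, unadjusted p = 0.00555 in limma), and the unadjusted p was under 0.05 in 2 of the 13 alternatives.

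FERMT1, the kindlin of epithelia, had 5.53, 7.33 and 4.65 FPKM in shNC and 4.15, 3.22 and 4.78 FPKM in shARHGEF2 cells. The groups overlapped, since shARHGEF2 replicate 3 exceeded shNC replicate 3. The ratio of the means was 0.694 and the log2 fold change -0.43, the largest downward value in the group (standard error 0.18, 95% interval -0.83 to -0.03, unadjusted p = 0.0380 and adjusted p = 0.338 in limma). Over the alternatives it lay between -0.56 and -0.28, with an unadjusted p under 0.05 in 7 of 13. FERMT2 did not share this value, with a log2 fold change of -0.04 (95% interval -0.44 to 0.35), but the difference between the kindlins was not tested.

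TNS1, a tensin that binds the beta tail and actin, had 6.35, 7.28 and 7.40 FPKM in shNC and 8.58, 8.04 and 8.40 FPKM in shARHGEF2 cells. All shARHGEF2 libraries were higher (two-sided exact permutation test, p = 0.1), with a log2 fold change of 0.22 (95% interval -0.02 to 0.46, adjusted p = 0.402 in limma). The other tensins had log2 fold changes of -0.10 (TNS3) and -0.19 (TNS4), and the groups overlapped in each.

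**Figure D2:**
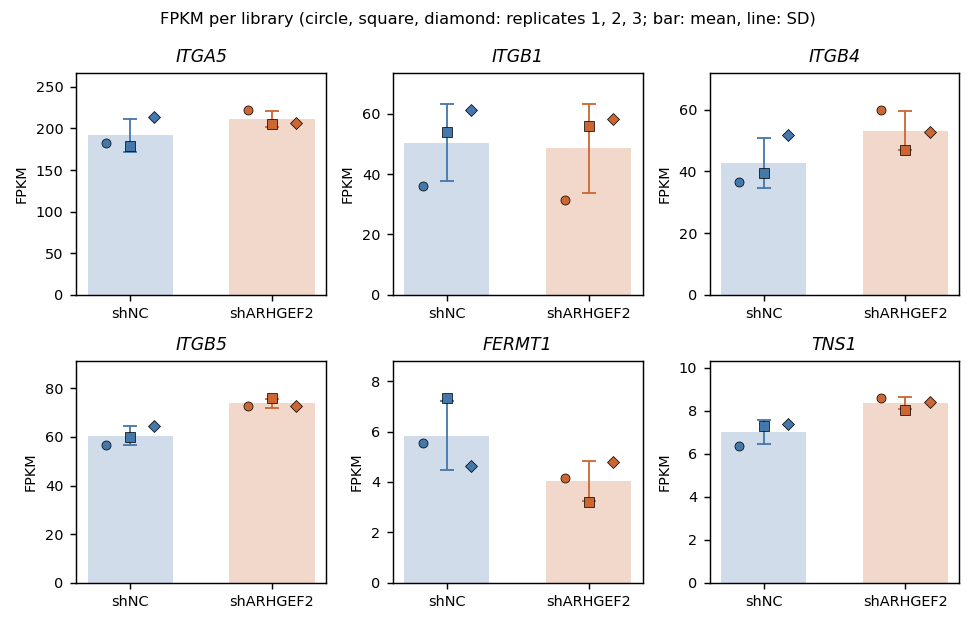
FPKM of ITGA5, ITGB1, ITGB4, ITGB5, FERMT1 and TNS1 in each library, with the mean (bar) and SD (line) of each group of 3. The groups are apart for ITGB5 and TNS1, they overlap for the other 4, and replicate 1 is the low library of both groups for ITGB1.

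For the remaining members the intervals tell how large a difference these libraries could have missed. The 95% interval of the log2 fold change lay within a 2-fold change in either direction for 34 of 34 members, and within a 1.5-fold change for 28 (82.4%, beside 75.9% of all genes tested). On the log2(FPKM + 1) scale these limits understate the change of genes near 1 FPKM, such as PTK2, PARVA and ITGA1. Narrow intervals included those of ACTN4 at 0.05 (-0.13 to 0.22), ILK at 0.00 (-0.20 to 0.19) and TLN1 at 0.06 (-0.16 to 0.28). An abundant gene did not always have a narrow interval, as VASP, averaging 40.1 FPKM, had 0.14 (-0.24 to 0.53). FLNA had -0.07 (-0.29 to 0.15), ZYX 0.17 (-0.09 to 0.43), FLNC 0.08 (-0.16 to 0.32), ITGA5 0.14 (-0.07 to 0.36) and ITGA3 0.05 (-0.19 to 0.29). VCL had -0.12 (-0.35 to 0.12), PXN 0.05 (-0.22 to 0.33), SRC 0.13 (-0.14 to 0.40) and BCAR1 0.23 (-0.06 to 0.51). The 6 members whose interval went past 1.5-fold were ITGB1 (-0.77 to 0.63), FERMT1, ITGAV (-0.43 to 0.67), ITGA2 (-0.64 to 0.35), CRK (-0.41 to 0.61) and ITGB4. ITGB1 was thus the tested member whose log2 fold change is least certain on this scale.

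**Figure D3:**
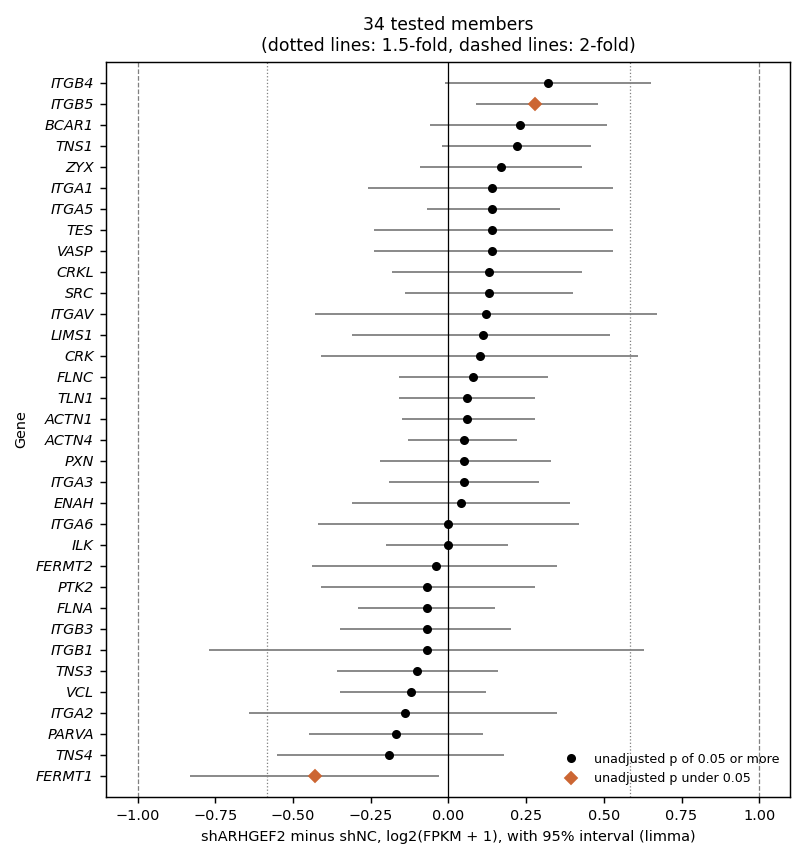
Log2 fold change of the 34 tested members on the log2(FPKM + 1) scale, shARHGEF2 minus shNC, with 95% intervals from limma. Every interval lies within 2-fold, and ITGB5 (0.28) and FERMT1 (-0.43), drawn as diamonds, have an unadjusted p under 0.05.

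By role, the alpha subunits had a median log2 fold change of 0.09 (5 higher, 1 lower), the 4 tested beta subunits 0.11 (2 and 2), the activators and ILK complex -0.02 (2 and 4), the kinases and adaptors 0.11 (5 and 1) and the 12 tested actin-linking proteins 0.05 (8 and 4). No gene in any role was called. Summed over the subunits, the alpha chains had 281, 287 and 337 FPKM in shNC and 337, 317 and 318 FPKM in shARHGEF2 cells, and the beta chains 133, 157 and 181 FPKM in shNC and 167, 182 and 187 FPKM in shARHGEF2 cells. The groups overlapped in both sums.

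The libraries of a group also differed by base composition. Across the 34 tested members, the deviation of a gene from its group mean was correlated with the GC content of its transcripts, least in shNC replicate 3. The deviations of the 3 libraries of a group sum to 0, so these correlations are not independent of each other. Pearson's r across genes, which are not independent and share their library, was 0.57 in shNC replicate 1, -0.74 in shNC replicate 2 and 0.32 in shNC replicate 3. In shARHGEF2 cells it was 0.87 in replicate 1, -0.63 in replicate 2 and -0.64 in replicate 3. Over all 12231 tested genes with a GC value the same correlations ran from -0.41 to 0.46 and were weak in replicate 3 of both groups (0.18 in shNC and -0.13 in shARHGEF2 cells). Of the 8 members at or under 45% GC, 6 were lowest in replicate 1 of both groups (all genes of that kind, 53.7%), namely ITGB1 (40.0% GC), ITGAV (38.1%), ITGA1 (38.8%), FERMT2 (40.2%), ITGA6 (42.2%) and TES (43.7%). The other 2, ITGA2 and CRK, were not, and of the 18 members over 55% GC 0 were (all such genes, 6.33%). The SD within a group, on the log2(FPKM + 1) scale, had a median of 0.31 for the 8 members at or under 45% GC and 0.12 for the 18 members over 55% GC. Over all genes tested these medians lay closer together, at 0.19 (at or under 45% GC) and 0.14 (over 55% GC). With a trend on GC content removed from each library, an alternative added after the data were seen, the interval became narrower for 32 of the 34 members. The half-width of the interval of ITGB1 went from 0.70 to 0.53 and that of ITGA6 from 0.42 to 0.26, and the number of members within 1.5-fold rose to 32. The log2 fold changes were then 0.27 for ITGB5, -0.42 for FERMT1, 0.26 for ITGB4 and -0.05 for ITGB1, and 0 members were called. Whether GC content itself set these values was not tested.

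**Figure D4:**
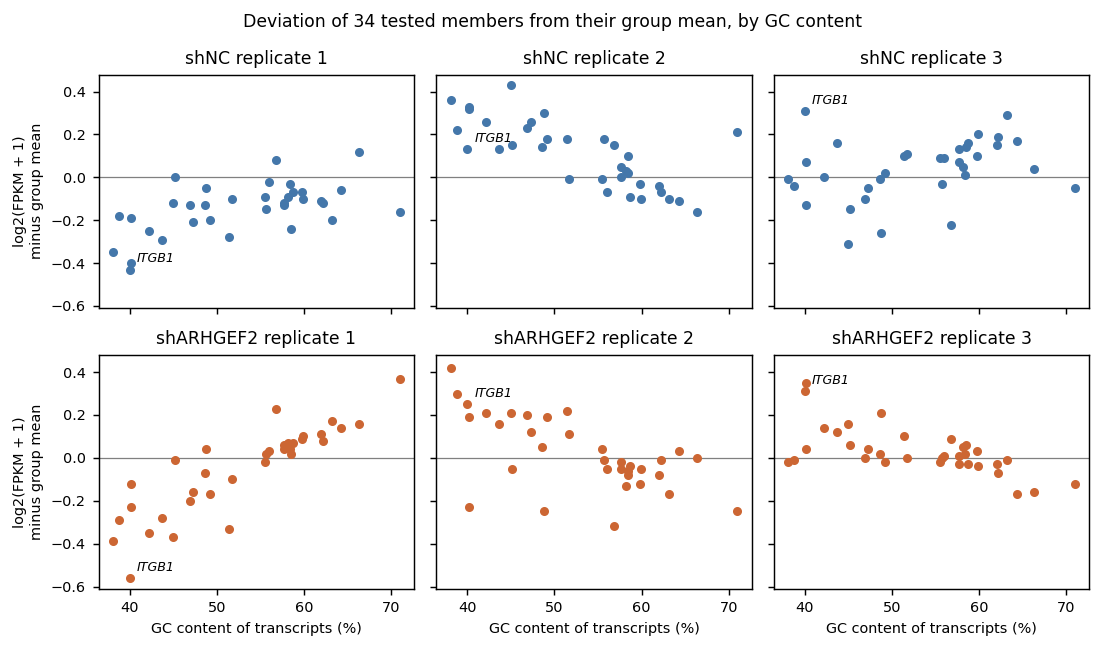
Deviation of each of the 34 tested members from its group mean, in log2(FPKM + 1), against the GC content of its transcripts, a panel for each library. Points rise with GC content in replicate 1 of both groups (r = 0.57 and 0.87) and fall in replicate 2 of both groups (r = -0.74 and -0.63), and ITGB1 (40.0% GC) lies at -0.43 and -0.56 in replicate 1.

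Other genes of the pathway were taken from lists of further integrin subunits, paralogs and partners, signalling proteins and matrix ligands. Of the 14 other integrin subunits, 3 were expressed enough to be tested. ITGA2B, the alpha chain of the platelet integrin, had 0.481, 0.283 and 0.640 FPKM in shNC and 0.968, 1.23 and 0.877 FPKM in shARHGEF2 cells, which is 0.47 on the log2 scale (limma, adjusted p = 0.180). ITGA7, a laminin receptor chain of muscle, had 0.489, 0.771 and 0.661 FPKM in shNC and 1.3, 1.17 and 0.857 FPKM in shARHGEF2 cells, which is 0.36 on the log2 scale (limma, adjusted p = 0.266). Both were higher in every shARHGEF2 library, as were 11.3% of all genes tested, at levels near or under 1 FPKM. The third, ITGAE, overlapped. ITGA2B averaged 0.468 FPKM in shNC, under the limit of 0.5 FPKM, and passed the filter only through its level in shARHGEF2 cells. That 2 of the 3 were higher is thus partly set by the filter and is not a result about these subunits. Leukocyte chains such as ITGAL, ITGAM, ITGA4 and ITGB7 were at or near 0.

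Of the 21 tested paralogs and partners (26 listed), 7 were higher and 14 lower, with a median log2 fold change of -0.10 and 0 called. At an unadjusted p under 0.05 in limma there were 2, or 9.52% beside 13.7% of all genes tested. At that p in limma, TLN2, the second talin, was lower (log2 fold change -0.31) and TNS2, another tensin, higher (0.37). Of 29 tested signalling proteins 0 were called in limma and the median was -0.02. Those with an unadjusted p under 0.05 in limma were 2, or 6.9% beside 13.7% of all genes tested. GIT1, which with the PIX exchange factors turns adhesions over, had 35.2, 33.2 and 40.5 FPKM in shNC and 48.2, 52 and 50.1 FPKM in shARHGEF2 cells (log2 fold change 0.46, unadjusted p = 0.00135, adjusted p = 0.117 in limma). NEDD9, a relative of BCAR1, stood at 0.34 on the log2 scale (limma, adjusted p = 0.334). Both were higher in each shARHGEF2 library. The groups did not overlap in 6 of the 29 signalling proteins, or 20.7% beside 20.5% of all genes tested.

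The ligands of integrins, without collagens and laminins, had 14 tested genes of 23, of which 10 were higher and 4 lower, with a median log2 fold change of 0.17 and 0 called. An unadjusted p under 0.05 in limma was reached by 5 of the 14, or 35.7% beside 13.7% of all genes tested. The list was chosen with earlier results of these data known, so this share is not a test of the ligands. ICAM1, which leukocyte integrins bind, had 6.99, 6.71 and 9.53 FPKM in shNC and 14.2, 14 and 12 FPKM in shARHGEF2 cells (log2 fold change 0.73, adjusted p = 0.104 in limma). It was the single gene of these lists that any alternative called, at 0.87 (adjusted p = 0.0382 in limma) without shNC replicate 3. TGFB1, whose latent form ITGAV integrins bind, had 112, 94.4 and 123 FPKM in shNC and 160, 146 and 143 FPKM in shARHGEF2 cells (log2 fold change 0.45, adjusted p = 0.141 in limma). MFGE8, a bridge between ITGAV integrins and dying cells, and LTBP1, which anchors latent TGF-beta to matrix, had log2 fold changes of 0.37 and 0.30. CCN1, a matrix protein and common target of RHOA signalling, was the 1 ligand in the other direction at this p. It had 68.6, 71.3 and 95.2 FPKM in shNC and 60.5, 59.8 and 59.6 FPKM in shARHGEF2 cells (log2 fold change -0.37, adjusted p = 0.257 in limma). CCN2, on the same list, averaged 5.11 FPKM in shNC and 5.18 FPKM in shARHGEF2 cells (log2 fold change 0.02). Whether RHOA signalling set these values was not tested. Fibronectin itself (FN1), the ligand of the ITGA5 receptor, ran from 37.5 to 45.5 FPKM in shNC and from 45.4 to 51.0 FPKM in shARHGEF2 cells.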

How the data were processed

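Poly(A) RNA of 6 libraries labelled as HepG2 was sequenced as strand-keeping pairs with molecular identifiers. The submitters' processing notes name cutadapt 1.9, HISAT2 2.0.4, UMI-tools, StringTie 1.3.4d, DESeq2, edgeR and the build hg19, without their roles. The deposited FPKM, made by the authors per gene and library, were used as they stand. The authors' own fold changes, p-values and calls were not used. Of the transcripts listed, 94.7% matched GENCODE 29 (GRCh38), which served for GC content (the median over the protein-coding transcripts listed), overlaps and the sequences; the table holds no coordinates.

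Genes averaging 0.5 FPKM or more were tested with limma 3.58.1 (R 4.3.3, statmod 1.5.0; trended, robust variances) on log2(FPKM + 1), Benjamini-Hochberg over all 12291 genes, and tested on simulated data. Single members were also compared by exact permutation. The 37 members and the lists were chosen with earlier results of these data known. Values per library are printed for members with an unadjusted p under 0.05, groups apart, a log2 fold change of at least 0.3 in size, or among the 8 highest, and non-members are named at an unadjusted p under 0.05. FN1, CCN2, ITGAE, PARVB, LIMS2 and the chains at 0 were named after their values were seen. The settings varied were the replicate number as a block, the pseudocount (0.1), other filters, quantile normalization, plain variances, each library left out and, added later, GC content (loess, span 0.3). Python 3.11.15, pandas 2.3.3, numpy 2.4.6, Biopython 1.88 and matplotlib 3.10.9 were used.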

Additional observations from a re-analysis of the deposited data

How the results depend on the processing

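Over the 13 alternatives 0 members were called in limma (1 to 4 at an unadjusted p under 0.05), and the median log2 fold change of the members moved by less than the SD between libraries (-0.01 to 0.10 with 1 library left out). The number of genes called over all genes was 34, but 0 with the replicate block (1976 at an unadjusted p under 0.05), 1 with no filter beyond a value above 0, 54 with at least 1 FPKM in 3 or more libraries, 19 with quantile normalization and 7 without trend and robust variances. It ranged from 6 (without shARHGEF2 replicate 3) to 102 (without shNC replicate 3) with 1 library left out, and was 47 with the GC trend removed. ARHGEF2 kept a log2 fold change of -1.47 with the replicate block (adjusted p = 0.0716 in limma) and with no filter (adjusted p = 0.0701 in limma). Its unadjusted p in limma rose too, from 3.97e-07 to 1.16e-05 with the block and to 5.08e-06 with no filter. Members with an unadjusted p under 0.05 numbered 1 with the replicate block, 1 with no filter, and 1 to 4 with 1 library left out (4 without shNC replicate 3: ITGB5, ITGB4, ITGA5 and FERMT1). Members whose groups do not overlap numbered 2 to 12 (12 without shNC replicate 3, where 33.9% of all genes did not overlap). Other adhesion genes called numbered 0 to 1. With 1 library left out ITGB1 ran from -0.29 to 0.21 and FLNA from -0.13 to 0.00. ITGB1 turned to 0.08 without shNC replicate 3 and to 0.21 without shARHGEF2 replicate 1, and FLNA to 0.00 without shNC replicate 3. The cause of these shifts was not tested beyond the samples or genes each setting removes.

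The replicate numbers were not taken to pair the libraries, since not every pair correlated above 0.1. The deviations of same-numbered libraries correlated at 0.184, 0.159 and -0.105 over all genes and at 0.67, 0.346 and -0.161 over the 34 tested members. No depth was available as counts, and genes under 0.5 FPKM (ITGB6, ITGB8 and LPP among the members) were not tested.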

Other observations

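The annotation columns of the table give a wider view of the same structure. The GO term focal adhesion was carried by 407 genes, 35 of the 37 members among them, and 343 of the 407 were tested. ARHGEF2, which carries the term itself, was the 1 gene of the 343 called in limma. At an unadjusted p under 0.05 in limma there were 56 (16.3%, beside 13.7% of all genes tested), 42 higher and 14 lower in shARHGEF2 cells. All genes tested also leaned upward at that p, with 996 higher (8.1%) and 682 lower (5.55%). The median log2 fold change of the genes with the term was -0.01.

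After ARHGEF2, the lowest p-values of that term belonged to HSPA1A and HSPA1B, near-identical heat shock genes that may share reads, with log2 fold changes of 0.70 and 0.67 (adjusted p = 0.0501 in limma for both). ICAM1 and GIT1, described above, were also among the lowest. PLAUR, the urokinase receptor, had 47.4, 41.0 and 49.8 FPKM in shNC and 64.3, 65.2 and 63.4 FPKM in shARHGEF2 cells (log2 fold change 0.48, adjusted p = 0.110 in limma). CSPG4, a proteoglycan that acts with integrins, had 13.8, 17.2 and 16.8 FPKM in shNC and 25.6, 22.3 and 22.9 FPKM in shARHGEF2 cells (log2 fold change 0.54, adjusted p = 0.116 in limma). MCAM, an adhesion molecule of the immunoglobulin family, had 37.6, 40.5 and 41.3 FPKM in shNC and 58.0, 49.6 and 51.8 FPKM in shARHGEF2 cells (log2 fold change 0.41, adjusted p = 0.127 in limma). AFAP1, which binds actin filaments and SRC, had 12.4, 15.9 and 16.1 FPKM in shNC and 21.4, 23.5 and 23.4 FPKM in shARHGEF2 cells (log2 fold change 0.60, adjusted p = 0.109 in limma). In PLAUR, CSPG4, MCAM and AFAP1 the groups did not overlap, as in 20.5% of all genes tested, and none passed the adjusted threshold. These 4 were chosen after their values were seen.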
